A study of Mus musculus with 6 samples.

Results

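The 10 genes described here are Tnf, Tnfrsf1a, Tnfrsf1b, Traf6, Nfkb1, Rela, Nfkbia, Nfkbiz, Tnfaip3 and Tnip1. Among them are the genes of the cytokine TNF, its receptors, NF-kB subunits and proteins that switch NF-kB off again. Traf6 encodes a ubiquitin ligase that passes receptor signals on to NF-kB, and Nfkbiz an inducible nuclear IkB protein. The 10 genes were taken by gene symbol, and all 10 of 10 were found among the 24956 gene rows of the count table and passed the filter on low counts. The table holds bulk RNA-sequencing counts of microglia, the resident macrophages of the brain, isolated by fluorescence-activated sorting. All mice were 7 months old and of the 3XTg-AD strain, a model of Alzheimer's disease that carries mutant human APP and MAPT transgenes under the neuronal Thy1 promoter. For 3 libraries the mice had received anti-NK1.1, an antibody used to deplete natural killer (NK) cells, and for the other 3 an isotype control. Both antibodies were given at 25 µg every 4 days for 4 weeks. The labels do not say whether a library is 1 mouse or a pool, so p-values measure the spread between these libraries, which may be technical.

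TNF is made by activated macrophages and acts through a pair of receptors, one on nearly all cells and one mainly on immune and endothelial cells. Receptor signals, and those of Toll-like and interleukin-1 receptors that pass through Traf6, free NF-kB dimers such as that of the Rela and Nfkb1 products from their inhibitor IkB-alpha, the product of Nfkbia. NF-kB then induces Nfkbia itself, Tnfaip3 and Tnip1, whose products end the signal, so that transcripts of these genes are commonly read as a trace of recent NF-kB activity in microglia.

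Nfkbia, Tnfaip3 and Tnip1 carry the 10-base kappaB consensus, the sequence that NF-kB dimers bind, in the 250 bases before their RefSeq start site (GRCm38.p6). Stretches that end at the start site are shown because these are the brakes whose transcripts are compared below, with bases that match the consensus on either strand in capitals.
Nfkbia: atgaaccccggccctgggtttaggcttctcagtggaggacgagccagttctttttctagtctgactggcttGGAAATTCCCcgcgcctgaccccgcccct
Tnfaip3: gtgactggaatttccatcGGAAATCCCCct
Tnip1: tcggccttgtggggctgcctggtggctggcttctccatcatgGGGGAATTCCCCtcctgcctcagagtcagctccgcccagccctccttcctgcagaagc
They lie on the minus strand at chr12:55492648-55492747, chr10:19015411-19015440 and chr11:54962941-54963040, and the capitals begin at positions -29, -12 and -58 from the start site. In Tnip1 the capitals hold 4 overlapping matches over both strands, and a further match in Tnfaip3 lies farther upstream. The Tnfaip3 stretch precedes the RefSeq start site but lies inside the GENCODE M21 span of the gene, chr10:19000910-19015657. Of its 250-base window, 110 bases are GENCODE exon, though none of those shown. RefSeq promoter windows were found for 8 of the 10 genes, while Nfkbiz and Nfkb1 had none and were not searched. Of the 8 genes, 3 held a match in any window. Of all 32851 windows 7.25% did, which is a share of windows and not of genes. A match is a description of these letters, not a measured binding site, and the 3 genes did not share one pattern across the libraries.

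Tnfaip3, the ubiquitin-editing enzyme that dismantles the TNF receptor signal, had its 3 anti-NK1.1 values all under its lowest isotype value. Nfkbiz, an inducible nuclear IkB protein, and Traf6, the ubiquitin ligase downstream of Toll-like and interleukin-1 receptors, were also lower without overlap. None of the 10 genes passed edgeR's quasi-likelihood test adjusted over all 14520 genes tested, where 0% of genes were called. These 3 genes, 30% of the 10, had groups that did not overlap with the anti-NK1.1 group lower, against 7.59% of all tested genes, and they were the 3 with an unadjusted p under 0.05 and lower, against 3.80% of all tested genes. None was higher without overlap (7.73% of all tested genes), except Rela with upper-quartile scaling, or at an unadjusted p under 0.05 (2.74%). With 1 isotype library left out, 4, 3 and 4 of the 10 genes were lower without overlap (without isotype 1, 2 and 3), against 12.3%, 12.4% and 10.9% of all tested genes. Without anti-NK1.1 1, 2 and 3 the counts were 4, 4 and 5, against 9.80%, 19.8% and 12.5%. Tnfaip3, Nfkbiz and Traf6 were among the genes each time, which nearly follows from their separation with all libraries and adds no support. The fitted change was below 0 for 7 of 10 genes, against 49.1% of all tested genes, and the median log2 change was -0.49 against 0.01 over all tested genes.

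**Figure D1:**
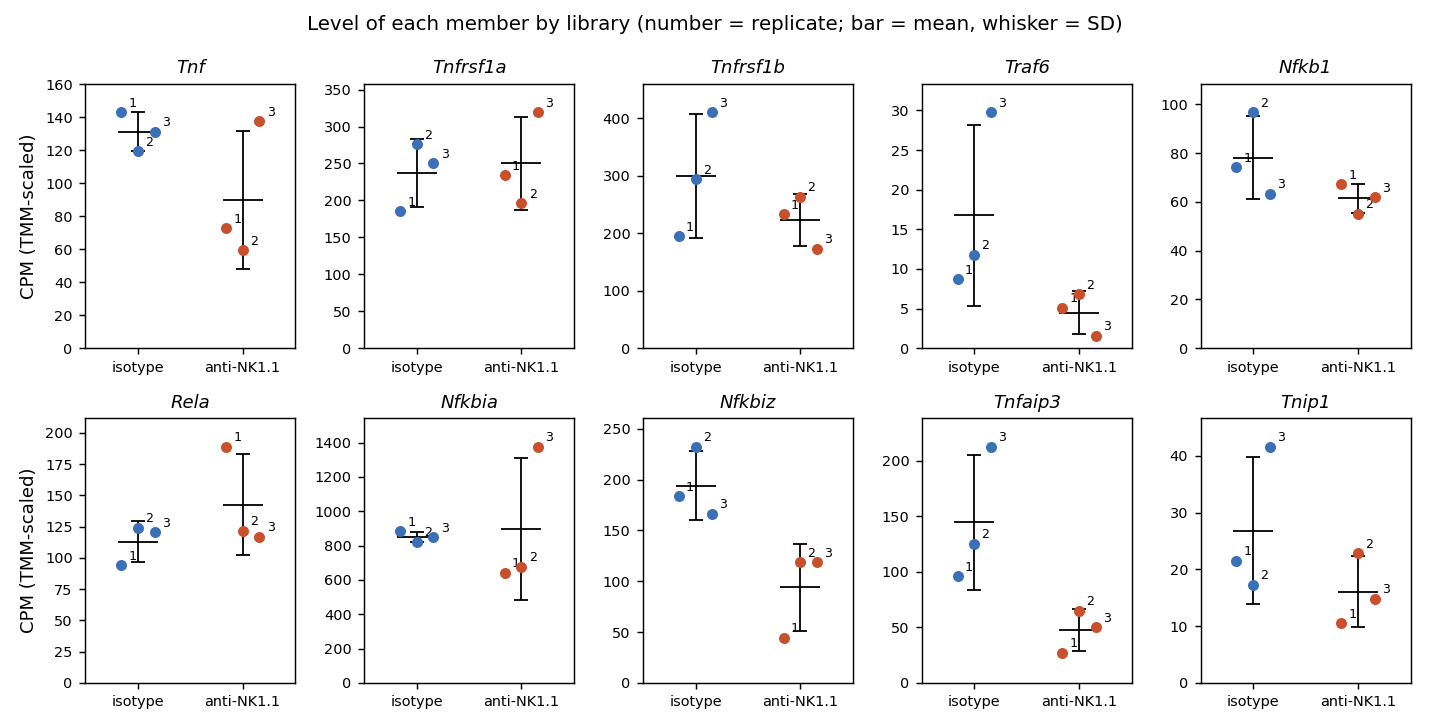
Level of each of the 10 genes in CPM (counts relative to the library total, with TMM scaling factors) in the 3 isotype (blue) and 3 anti-NK1.1 (red) libraries, with replicate numbers, group means (bars) and SD (whiskers); axes start at 0. Tnfaip3, Nfkbiz and Traf6 are the genes whose groups do not overlap, and anti-NK1.1 3 lies above the other anti-NK1.1 libraries for Tnf, Tnfrsf1a and Nfkbia.

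Depth did not limit any of the 10 genes, whose counts ran from 39 reads of Traf6 in anti-NK1.1 3 to 34529 reads of Nfkbia in the same library. Library totals over genes ranged from 26893620 to 36098252 counts. The libraries held transcripts of other cells beside those of microglia. All 10 microglial markers were detected, with a summed level of 31332 to 35845 CPM with isotype and 27307 to 35979 CPM with anti-NK1.1. All 10 neutrophil markers were detected too, at 70115 to 98034 CPM in isotype libraries and at 30666, 31379 and 135944 CPM in anti-NK1.1 1, 2 and 3. The 10 NK cell markers summed to 88.7 to 133 CPM with isotype and 38.3 to 76.8 CPM with anti-NK1.1, with Ncr1 and Klra8 at 0 in all anti-NK1.1 libraries and Klra8 at 0 in all isotype libraries as well. The trend of a gene's level, relative to its mean over the 6 libraries, on transcript length had a Spearman's rho across genes of -0.004, 0.04 and 0.35 in isotype 1 to 3 and of -0.18, 0.25 and -0.34 in anti-NK1.1 1 to 3, so long transcripts were relatively scarce in anti-NK1.1 1 and 3. Summed markers of some other cell types separated the groups. Those of astrocytes (118 to 188 against 132 to 230 CPM) overlapped. So did those of endothelium and pericytes (28.9 to 58.5 against 22.7 to 67.3 CPM). Single genes weighed heavily in some sums. In anti-NK1.1 1, Mbp gave 615 of the 857 CPM of oligodendrocytes and Meg3 471 of the 562 CPM of neurons. Of the border macrophage markers, Mrc1 had a log2 change of -0.44 and the other 5 of 6 were above 0. Summed markers of oligodendrocytes stood at 291 to 399 CPM with isotype against 747 to 876 CPM with anti-NK1.1, those of neurons at 37.7 to 137 against 177 to 562 CPM, those of T cells at 10.2 to 19.1 against 31.1 to 36.3 CPM and those of border macrophages at 48.5 to 84.9 against 109 to 175 CPM. Of 6 monocyte markers, Fn1 (log2 change -2.41), F13a1 (-1.70) and Ccr2 (-1.68) were lower without overlap, as were 7.59% of all tested genes. The groups overlapped for Ly6c2 (-0.63), Plac8 (0.14) and Vcan (0.63). The sum of all 6 was 1134 to 1404 CPM with isotype against 475 to 1367 CPM with anti-NK1.1. The part of these cell types in the changes of the 10 genes was not tested. Genes are not independent replicates, and the length trends are descriptions.

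Tnf, the cytokine (chr17:35199381-35202007, minus strand; coordinates of genes are those of GENCODE M21 on GRCm38), stood at 143, 119 and 131 CPM in isotype libraries 1 to 3. In the anti-NK1.1 libraries it stood at 72.5, 59.5 and 137 CPM. Anti-NK1.1 1 and 2 lay below every isotype library, while anti-NK1.1 3 lay within the isotype range. The mean was 131 ± 11.8 CPM with isotype and 89.8 ± 41.7 CPM with anti-NK1.1 (SD, n = 3 each). The log2 change was -0.55 ± 0.32 (SE), with an edgeR adjusted p of 0.743, and it was -0.99 when anti-NK1.1 3 was left out. Anti-NK1.1 3 was also the library with the largest neutrophil sum. In a bulk sample, fewer cells of a type and less RNA per cell cannot be told apart, and the part of neutrophil RNA in the Tnf level was not tested.

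Both receptor genes had groups that overlapped. Tnfrsf1a, the broadly expressed death-domain receptor of TNF (chr6:125349362-125362484, plus strand), had 186, 276 and 250 CPM with isotype and 234, 197 and 320 CPM with anti-NK1.1. Anti-NK1.1 3 lay above the isotype range and the other anti-NK1.1 libraries within it, and the log2 change of 0.08 ± 0.26 (edgeR adjusted p = 0.952) turned to -0.25 with the length and GC correction and to -0.14 without anti-NK1.1 3. Tnfrsf1b, the receptor found mainly on immune cells (chr4:145213463-145246870, minus strand), had 195, 294 and 411 CPM with isotype and 233, 263 and 173 CPM with anti-NK1.1. Isotype 3 was the highest library and anti-NK1.1 3 the lowest, and the log2 change was -0.43 ± 0.30 (edgeR adjusted p = 0.762), or -0.14 without isotype 3. Counts of Tnfrsf1b per count of Tnfrsf1a were 1.05, 1.07 and 1.64 in isotype and 1.00, 1.34 and 0.541 in anti-NK1.1 libraries, without separation of the groups (two-sided exact permutation test on log2 ratios, p = 0.4).

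Traf6 (chr2:101678429-101701669, plus strand) was the least abundant of the 10 genes in both groups. It had 8.68, 11.8 and 29.8 CPM in isotype libraries and 5.12, 6.78 and 1.55 CPM with anti-NK1.1. The lowest isotype library lay only a little above the highest anti-NK1.1 library, and isotype 3 and anti-NK1.1 3, at the top and the bottom, were also the libraries with the highest and lowest length trend. The log2 change was -1.90 ± 0.69, or 0.268 times the isotype level, with an edgeR unadjusted p of 0.0207 and an adjusted p of 0.727. It was -1.67 with libraries corrected for length and GC content of transcripts, and -1.50 when anti-NK1.1 3 and -1.19 when isotype 3 was left out.

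The subunits of the NF-kB dimer itself had small values in opposite directions. Nfkb1, the precursor of a DNA-binding subunit (chr3:135584655-135691547, minus strand), had 74.3, 96.9 and 63.4 CPM with isotype and 67.2, 55.2 and 62.0 CPM with anti-NK1.1, a log2 change of -0.35 ± 0.25 (edgeR adjusted p = 0.769). Rela, the subunit that carries the transactivation domain (chr19:5637483-5648130, plus strand), had 94.2, 124 and 121 CPM with isotype and 189, 122 and 117 CPM with anti-NK1.1. Only anti-NK1.1 1 lay above the isotype range, and the log2 change of 0.33 ± 0.26 (edgeR adjusted p = 0.781) was -0.067 with the length and GC correction. Counts of Rela per count of Nfkb1 were 1.27, 1.28 and 1.91 in isotype and 2.81, 2.21 and 1.88 in anti-NK1.1 libraries. The lowest anti-NK1.1 ratio fell just under the highest isotype ratio (two-sided exact permutation p = 0.2).

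Nfkbia, the kappaB-controlled gene of IkB-alpha shown above (chr12:55489410-55492647, minus strand), was the most abundant of the 10 genes. Its isotype libraries were close together, at 882, 824 and 847 CPM. The anti-NK1.1 libraries were spread on both sides of them, at 643 and 676 CPM in replicates 1 and 2 and 1376 CPM in replicate 3. The coefficient of variation was 3.46% in isotype and 46.1% in anti-NK1.1 libraries, and no test of that difference was made. The log2 change was 0.08 ± 0.30 (edgeR adjusted p = 0.957), and it was -0.37 without anti-NK1.1 3 and -0.22 with the length and GC correction. The summed level of 12 genes of tissue dissociation and the immediate early response was 10549 to 11956 CPM in isotype libraries and 7795, 9226 and 15591 CPM in anti-NK1.1 1 to 3. Its genes differed, and 7 of the 12 had a change below 0. Jun was lower without overlap, at 1507, 1562 and 1450 CPM with isotype and 829, 1384 and 1445 CPM with anti-NK1.1. Both this sum and the neutrophil sum given above had their largest value in anti-NK1.1 3. The part of either in the Nfkbia values was not tested.

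Nfkbiz (chr16:55811375-55838899, minus strand) had 184, 232 and 166 CPM with isotype and 44.5, 119 and 119 CPM with anti-NK1.1. Anti-NK1.1 1 was the lowest by far, and the other anti-NK1.1 libraries still lay under the lowest isotype library. The mean was 194 ± 34.3 CPM against 94.1 ± 42.9 CPM (SD, n = 3 each), a log2 change of -1.05 ± 0.36, or 0.485 times the isotype level (edgeR unadjusted p = 0.0172, adjusted p = 0.727). The change was -0.97 with the length and GC correction and -0.71 without anti-NK1.1 1.

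Tnfaip3 (chr10:19000910-19015657, minus strand) had the smallest p of the 10 genes and ranked 41st of 14520 by p. Its level was 96.0, 125 and 213 CPM with isotype and 27.2, 64.9 and 50.3 CPM with anti-NK1.1. The highest anti-NK1.1 value, in replicate 2, lay below the lowest isotype value, in replicate 1. The mean was 145 ± 60.8 CPM against 47.5 ± 19.0 CPM (SD, n = 3 each), a log2 change of -1.61 ± 0.39, or 0.328 times the isotype level (edgeR unadjusted p = 0.00230, adjusted p = 0.714). DESeq2 called this gene alone among the 10 on the same counts (log2 change -1.59, adjusted p = 0.0201), where it called 0.574% of all genes with an adjusted p. Over 15 alternatives, DESeq2 and limma included, the log2 change ran from -1.90 to -1.15 and the adjusted p from 0.0201 to 0.999. With the length and GC correction the change was -1.38.

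Tnip1, the ubiquitin-binding partner of the Tnfaip3 enzyme (chr11:54910785-54962917, minus strand), had 21.5, 17.3 and 41.6 CPM with isotype and 10.5, 22.8 and 14.9 CPM with anti-NK1.1. Anti-NK1.1 2 lay within the isotype range, and the log2 change was -0.74 ± 0.45 (edgeR adjusted p = 0.748). It was -0.27 without isotype 3, -1.08 without anti-NK1.1 2 and -0.23 without anti-NK1.1 1 and 3.

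**Figure D2:**
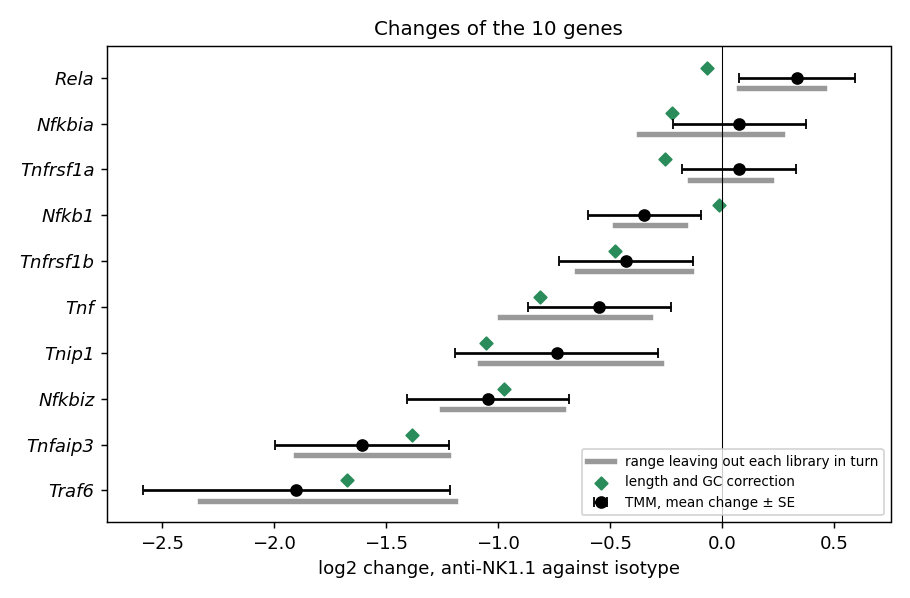
Log2 change of each of the 10 genes, anti-NK1.1 against isotype, with its SE (black), the range when each library is left out in turn (grey) and the value with the length and GC correction (green diamonds). Tnfaip3, Nfkbiz and Traf6 stay below 0 over the whole grey range, which nearly follows from groups that do not overlap. Tnf, Tnfrsf1b, Nfkb1 and Tnip1 stay below 0 too, while Nfkbia and Tnfrsf1a lie on both sides of 0.

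Count ratios within a library, which need no scaling between libraries, set the feedback genes against one another. There were 9.19, 6.58 and 3.98 counts of Nfkbia per count of Tnfaip3 in isotype 1 to 3 and 23.6, 10.4 and 27.4 in anti-NK1.1 1 to 3. Per count of Nfkbiz there were 4.80, 3.54 and 5.09 counts of Nfkbia in isotype and 14.4, 5.68 and 11.6 in anti-NK1.1 libraries. Both ratios were higher in every anti-NK1.1 library, with anti-NK1.1 2 nearest to the isotype range. The two-sided exact permutation p of each was 0.1, the smallest that 3 against 3 libraries can give, and 0.2 after Benjamini-Hochberg adjustment over the 4 ratios computed. Nfkbia has a shorter transcript, at 1578 nt, than Tnfaip3 and Nfkbiz, at 6199 and 4115 nt. With the length and GC correction the groups overlapped for Nfkbia per Nfkbiz. Isotype 3, at 1072 and 149 CPM of these genes, then had a higher ratio than anti-NK1.1 2, at 682 and 98.3 CPM. Nfkbia per Tnfaip3 still separated the groups. The part of the length trend in these ratios was not tested.

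**Figure D3:**
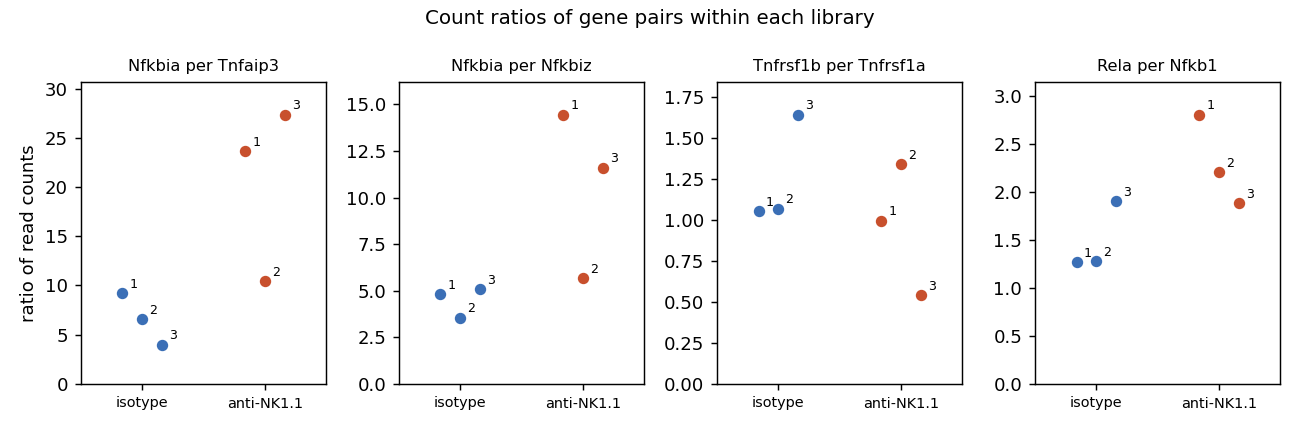
Ratios of read counts of 4 gene pairs in each library (isotype blue, anti-NK1.1 red, numbers are replicates; axes start at 0). The ratios of Nfkbia to Tnfaip3 and to Nfkbiz separate the groups, with anti-NK1.1 2 lowest among the anti-NK1.1 libraries, and the other ratios do not. With levels corrected for length and GC, the ratio to Nfkbiz does not separate them.

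Transcript length is given beside the changes because the libraries differ in their length trend, whose part in the changes was not tested. Tnfaip3 and Traf6, with longest annotated transcripts of 6199 and 6169 nt, had the changes farthest below 0. Nfkbia, Tnfrsf1a and Rela, at 1578, 2156 and 2716 nt, were those with a change above 0. Tnf, at 1639 nt, and Nfkb1, at 4149 nt and with a change of -0.35, did not follow that order. With the length and GC correction all 10 genes had a change below 0, from -1.67 for Traf6 to -0.015 for Nfkb1, against 53.5% of all tested genes, and the median over the 10 was -0.65. Traf6 and Tnfaip3 again had the lowest values, at -1.67 and -1.38. Under this correction the genes that separated the groups were Tnfaip3, Nfkbiz, Traf6 and, by a narrow margin, Tnfrsf1b, at 242, 268 and 392 CPM against 240, 226 and 181 CPM. These were 4 of the 10, where 9.54% of all tested genes were lower without overlap under the same correction.

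**Figure D4:**
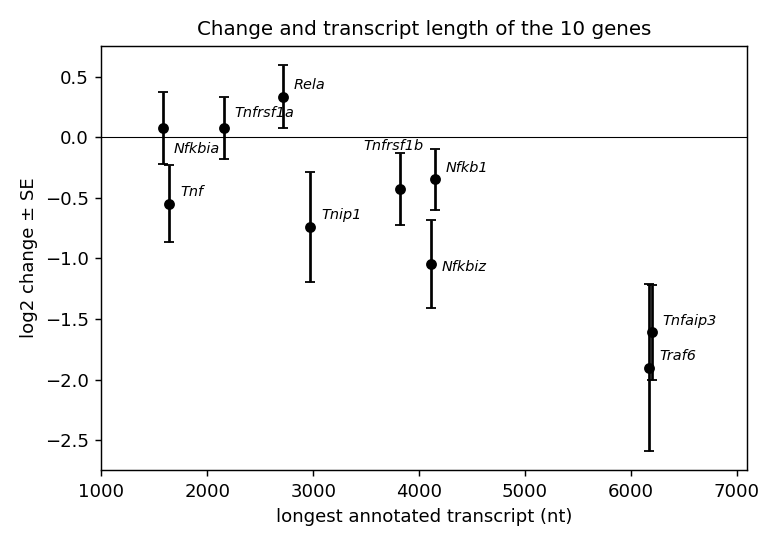
Log2 change with its SE (vertical axis, anti-NK1.1 against isotype) against the length of the longest annotated transcript (horizontal axis, nt) for the 10 genes. Traf6 and Tnfaip3 lie lowest and have the longest transcripts; Nfkbia, Tnfrsf1a and Rela lie above 0 at 2716 nt or less.

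Per length of transcript, the order of levels in isotype libraries ran from Nfkbia, at 539 ± 18.6 RPKM (CPM divided by transcript length in kilobases), to Traf6, at 2.72 ± 1.85 RPKM (SD, n = 3). Tnfrsf1a followed Nfkbia at 110 ± 21.6 RPKM, then Tnf at 80.0 ± 7.22, Tnfrsf1b at 78.6 ± 28.3, Nfkbiz at 47.2 ± 8.32 and Rela at 41.6 ± 6.05 RPKM. Lower down came Tnfaip3 at 23.3 ± 9.80, Nfkb1 at 18.8 ± 4.12 and Tnip1 at 9.02 ± 4.37 RPKM. The library ranges of neighbours in this order overlapped from Tnfrsf1a down to Rela and between Tnfaip3 and Nfkb1, so those orders were not distinct beyond the spread. In anti-NK1.1 libraries Nfkbia was again first, at 569 ± 262 RPKM, and Traf6 last, at 0.727 ± 0.432 RPKM. Tnfaip3, at 7.66 ± 3.06 RPKM, came after Nfkb1 there, at 14.8 ± 1.46 RPKM, and their library ranges did not overlap.

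Likeness of pattern was measured as the root mean square difference of log2 CPM over the 6 libraries, each gene centred on its own mean. Among the 10 genes the closest pair was Tnfrsf1a and Nfkbia, at 0.28, followed by Tnf and Nfkbia, at 0.33. Tnfaip3 was closest to Nfkbiz and Tnip1, at 0.50 and 0.51, and Nfkbia and Traf6 were farthest apart, at 1.47. Among 8103 other genes of at least 10 CPM on average, Myh9, a non-muscle myosin heavy chain, was closest to Tnfaip3, at 0.17, followed by Arhgap31, Cd101, Nup107 and Atp8a1, at 0.20 to 0.25. For Nfkbia the closest were Adssl1, Rdm1, Ostf1, Cdkn1b and Arhgap9, at 0.07 to 0.09. These genes were picked for their likeness, so that their levels in the groups follow from the choice.

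The rest of the pathway was read from 9 lists of 94 genes by role, of which 92 were tested. Lta, the gene of lymphotoxin next to Tnf, had no count in any library, which allows up to 0.0784 to 0.120 CPM, and Il12b, a cytokine gene, was too low to test. No gene of the 92 passed edgeR's adjusted test, and 57 of 92 (62.0%) had a fitted change below 0, against 49.1% of all tested genes. At an unadjusted p under 0.05 there were 6 lower genes (6.52%, against 3.80% of all tested genes) and 1 higher gene (1.09%, against 2.74%). Groups did not overlap for 9 lower genes (9.78%, against 7.59%) and 4 higher genes (4.35%, against 7.73%). The median log2 change of the 92 was -0.15, and it ran from -0.05 without anti-NK1.1 1 to -0.22 without anti-NK1.1 3. With the length and GC correction 67 of 92 (72.8%) had a change below 0, against 53.5% of all tested genes. The median was then -0.21. Leaving out 1 library moved the change of 20 of the 27 genes named below from these lists by over 1.5 times.

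With TMM scaling, kinases and ubiquitin brakes were the roles with the largest share of their genes below 0, against 49.1% of all tested genes. With the length and GC correction their shares were 70% and 86.7%, with medians of -0.37 and -0.21, against 53.5% of all tested genes. The TNF receptor signalling complex then had the largest share, at 100%, with a median of -0.22. The values that follow are those with TMM scaling. Of 10 genes of the TAK1 and IKK kinases, 9 had a change below 0, with a median of -0.53. Ikbkb, the catalytic kinase that marks IkB for destruction, had 46.5, 43.8 and 63.4 CPM with isotype and 14.3, 36.8 and 26.2 CPM with anti-NK1.1, without overlap (log2 change -0.99 ± 0.38, edgeR adjusted p = 0.727). Its relative Ikbke had -1.45 ± 0.67, and the scaffold Ikbkg had -0.55 ± 0.45. Without anti-NK1.1 1 and 3, 6 of the 10 had a change below 0 and the median was -0.12, and leaving out 1 library gave medians from -0.85 (without anti-NK1.1 2) to -0.20 (without anti-NK1.1 1). Of 15 ubiquitin-editing and deubiquitinating brakes, 13 had a change below 0, with a median of -0.44, which was -0.02 without anti-NK1.1 1 and 3, -0.12 without anti-NK1.1 1 and -0.69 without anti-NK1.1 2. Irak3, a kinase-dead brake on Toll-like receptor signals, had 40.3, 31.1 and 54.4 CPM with isotype and 22.2, 28.7 and 21.5 CPM with anti-NK1.1 (log2 change -0.80 ± 0.32, edgeR adjusted p = 0.727). Cyld, a deubiquitinase, had -0.90 ± 0.46. Tax1bp1, an adaptor of the Tnfaip3 enzyme, had 152, 102 and 158 CPM with isotype and 35.4, 124 and 41.3 CPM with anti-NK1.1. Its value in anti-NK1.1 2 lay within the isotype range, the log2 change was -1.04 ± 0.45, and without anti-NK1.1 2 it was -1.84 and passed edgeR's test (adjusted p = 0.0412), in a fit that called 129 genes in all.

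In the TNF receptor signalling complex 9 of 12 genes had a change below 0, with a median of -0.31, against 49.1% of all tested genes. Without anti-NK1.1 1 and without isotype 3 it was 7 of 12, with medians of -0.07 and -0.17, and without isotype 2 and without anti-NK1.1 2 it was 9 of 12, with medians of -0.17 and -0.49. Cflar, the inhibitor of caspase-8, had 56.9, 44.2 and 74.0 CPM with isotype and 28.1, 39.5 and 36.9 CPM with anti-NK1.1, without overlap (log2 change -0.74 ± 0.29, edgeR adjusted p = 0.727). Ripk1, the kinase that links the receptor to survival or death, had 29.6, 37.9 and 57.5 CPM and 1.35, 28.4 and 10.3 CPM, again without overlap but with anti-NK1.1 2 close to the lowest isotype library (log2 change -1.64 ± 0.81, -2.84 without anti-NK1.1 2 and -0.55 without anti-NK1.1 1 and 3). Casp8 itself had -0.36 ± 0.24.

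Upstream of Traf6 there was no common direction, with 5 of 8 genes above 0 and a median of 0.04. With the length and GC correction it was 3 of 8, with a median of -0.11. Irak2 had a log2 change of -0.49 ± 0.28, Irak1 of -0.21 ± 0.25 and Ecsit, a Traf6-binding adaptor that also serves mitochondrial complex assembly, of 0.68 ± 0.41. Among genes of TNF production and related ligands 5 of 9 were above 0, or 4 of 9 with the length and GC correction. Adam17, the protease that sheds TNF from the cell surface, had -0.94 ± 0.44, with anti-NK1.1 2 inside the isotype range. Rhbdf2, which brings that protease to the surface, had -0.68 ± 0.36, and the ligand Tnfsf12 had 0.77 ± 0.47.

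The other Rel subunits and IkB proteins did not resemble one another. Rel had a log2 change of -0.98 ± 0.55, Relb of 0.38 ± 0.40 and Nfkb2 of 0.33 ± 0.46. Of the IkB genes, Nfkbib had 0.59 ± 0.32, Nfkbie -0.45 ± 0.38 and Nfkbid -0.34 ± 0.40. None of these 6 genes had groups that did not overlap. The median of the 5 tested IkB genes was 0.23 with TMM scaling. With the length and GC correction it was -0.53, and 4 of the 5 had a change below 0, against 53.5% of all tested genes.

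With TMM scaling, genes of mRNA decay brakes and inducible targets were not shifted to one side. With the length and GC correction 4 of 5 and 16 of 25 had a change below 0, against 53.5% of all tested genes. The medians were then -0.18 for each list. With upper-quartile scaling 4 of 5 and 14 of 25 had a change above 0. Zfp36l1, which promotes decay of AU-rich transcripts, was the one gene of the 92 that was higher at an unadjusted p under 0.05, at 57.9, 55.7 and 51.3 CPM with isotype and 58.1, 113 and 96.3 CPM with anti-NK1.1 (log2 change 0.70 ± 0.28, edgeR adjusted p = 0.729). Anti-NK1.1 1 exceeded the highest isotype library by a small margin. Its relative Zfp36l2 had 0.09 ± 0.27, and Rc3h1 had -1.31 ± 0.73. Of 25 tested targets of NF-kB, 13 had a change below 0 and 12 above, with a median of -0.01. Il1a had -1.01 ± 0.23 without overlap, Ptgs2, the inducible cyclooxygenase, had 36.5, 42.7 and 68.6 CPM against 12.3, 36.7 and 23.3 CPM (-1.03 ± 0.43), and the chemokine Cxcl1 had 0.81 ± 0.41 without overlap. DESeq2 called Il1a alone among the 92 genes (adjusted p = 0.0298). Without anti-NK1.1 1 and 3, 20 of the 25 targets had a change below 0, with a median of -0.42, and without anti-NK1.1 2 it was 9 of 25, with a median of 0.11.

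**Figure D5:**
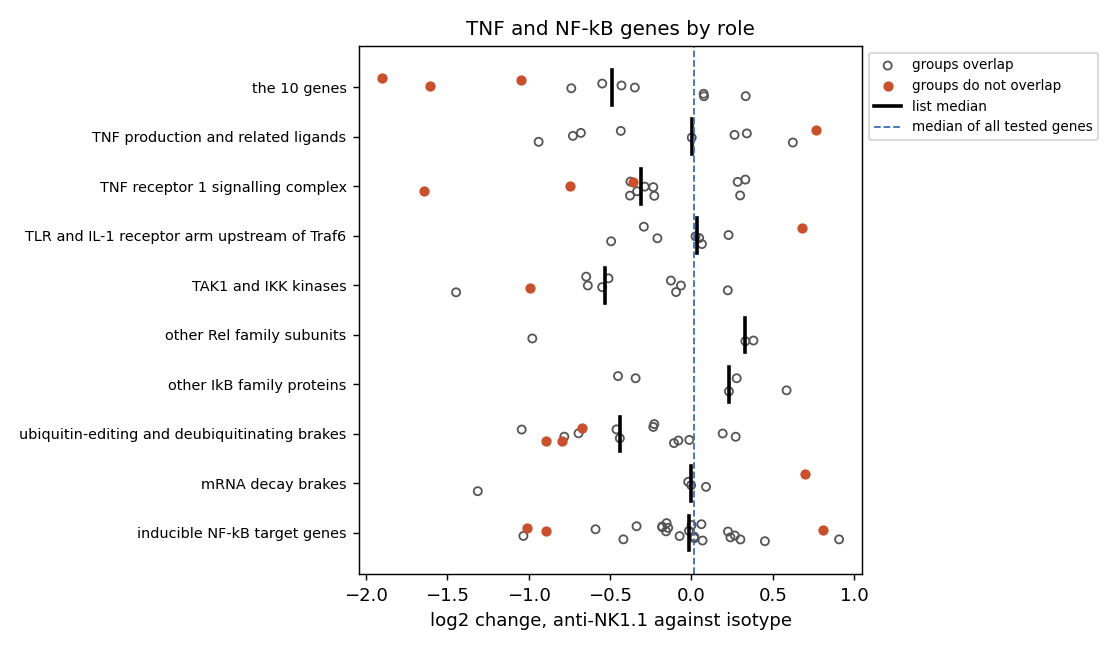
Log2 change of each tested gene (circles), anti-NK1.1 against isotype, for the 10 genes and the 9 other lists by role; filled circles are genes whose groups do not overlap, black lines are list medians and the dashed line is the median of all tested genes (0.01). Values are those with TMM scaling. The medians of the 10 genes (-0.49), of the TAK1 and IKK kinases (-0.53) and of the ubiquitin brakes (-0.44) lie below the dashed line. Those of the targets and the mRNA decay brakes lie close to it.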

How the data were processed

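The deposited table holds read counts per gene of 6 libraries, although it is described as normalized: its values are whole numbers with unequal library totals. Per the labels' protocols, total RNA was copied with the SMART-seq v4 kit, made into Nextera XT libraries and read as 75 bp single ends. Per the submitters' processing notes, bcl2fastq 2.20.0.422, STAR 2.5.3a, Cufflinks 2.0, DESeq2 1.1 and build mm10 were used. Counter, annotation and strandedness were not given in the sources used here. These kits keep no strand, but no exon of the 10 genes overlaps an exon of another gene in GENCODE M21. Reads in no feature (53.3% to 57.4% of all reads in the table) and 26 rows overwritten by calendar dates were left out.

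After filterByExpr, counts were scaled by TMM (trimmed mean of M values) and fitted on group alone in edgeR 4.0.16 under R 4.3.3. Its two-sided quasi-likelihood F-test was adjusted by Benjamini-Hochberg over 14520 genes at a threshold of 0.05. The SE is the absolute log2 change divided by the square root of F. Alternatives used DESeq2 1.42.0, limma 3.58.1 (voom), other scalings and filters, a replicate block, offsets for transcript length and GC content (longest GENCODE transcript, known for 98.9% of genes) and omitted libraries. On simulated counts (14053 genes, 3 runs) edgeR recovered 2.39% of genes changed by 1 and 38.0% of those changed by 2 on the log2 scale, with 7 false calls. Named pathway genes are the 3 with the smallest p in each list, and the genes likest in pattern are the 5 closest to Tnfaip3 and to Nfkbia. Lta, Il12b and the NK cell markers at 0 were named after their values were seen. The 10 genes and the lists were chosen with earlier results of these data known.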

Additional observations from a re-analysis of the deposited data

How the results depend on the processing

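Over 15 alternatives, 29 of 37 named genes of the pathway, 7 of the 10 genes described first among them, kept the direction of their log2 change. Nfkbia had -0.021 with limma-voom, -0.017 with the replicate block, -0.22 corrected for length and GC, -0.33 without anti-NK1.1 1 and 3, and -0.37 to 0.27 when each library was left out in turn. Tnfrsf1a had -0.25 corrected for length and GC, -0.27 without anti-NK1.1 1 and 3, and -0.14 to 0.22 on leaving out each library. Corrected for length and GC, Rela had -0.067 and Zfp36l2 -0.033. Without anti-NK1.1 1 and 3, Irak1 had 0.094, Nfkb2 -0.56 and Nfkbib -0.10. On leaving out each library Zfp36l2 ran from -0.063 to 0.29 and Ikbkg from -0.93 to 0.015. The cause was not tested. All 4 count ratios kept their direction when each library was left out, an alternative chosen after seeing the data.

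DESeq2 called 83 genes over the table, 1 of the 10 (Tnfaip3) and 1 of the 92 (Il1a), where edgeR called 0 of each. At an unadjusted p under 0.05 edgeR had 950 genes. Leaving out each library in turn gave 0 to 129 calls over the table (129 without anti-NK1.1 2), 0 among the 10 genes and 0 to 1 among the 92 (Tax1bp1). It gave 3 to 5 of the 10 genes with groups that did not overlap (5 without anti-NK1.1 3, adding Tnf and Nfkbia, all lower), but with a library left out 9.80% to 19.8% of all tested genes were lower without overlap (12.5% without anti-NK1.1 3), so the counts are not comparable with 3 against 3 and a median log2 change of -0.56 to -0.38. The median was -0.65 with the length and GC correction and -0.49 with TMM scaling alone. That shift was larger than 0.144, the SD within groups of the 10 genes' median per library, and it was not tested. With anti-NK1.1 1 and 3 left out, the lone library is assumed to vary like the isotype libraries. With the replicate number as a block, 0 genes were called and the median of the 10 was -0.51. The correlations of same-numbered libraries' deviations from their group means were 0.053, 0.030 and -0.004, and that of isotype 3 with anti-NK1.1 2 was 0.032. With 3 libraries per group, such values cannot show whether same-numbered libraries belong together. The smallest exact permutation p for 3 against 3 libraries is 0.1, and depth limits none of the 10 genes.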
